A study of Mus musculus with 9 samples.

Results

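Yap1, Wwtr1, Tead1, Tead2, Tead3, Tead4, Amotl2, Ankrd1, Ccn1 (formerly Cyr61) and Ccn2 (formerly Ctgf) are the co-activators, the DNA-binding partners and 4 widely used target genes of the YAP-TAZ-TEAD pathway. These 10 genes were chosen by name from the 55471 genes listed for each culture, and all 10 passed the filter on low counts. RNA had been sequenced from 9 cultures of primary articular chondrocytes of wild-type mice at postnatal day 5, taken from the femoral condyles and tibial plateaus, with 3 cultures in each of 3 groups. Ad-Control cells, labelled Control in the sample annotations, carried a control adenovirus. Ad-OSCAR cells carried an adenovirus that makes them express OSCAR, a collagen receptor of the immunoglobulin family. Ad-OSCAR + 5-ASA cells carried the same virus and were then treated with 5-ASA (5-aminosalicylic acid), an anti-inflammatory drug, at 10 µM according to the methods of the study.

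All cells had been kept in 10% serum, infected on day 3 for 2 h at 400 MOI and held for 36 h before the treatment, as the annotations have it. The study's methods give another dose of virus and other times. All plates were coated with COLpep, a collagen peptide that binds OSCAR, so the Ad-Control cells also grew on it, and no culture without virus was among the samples. Nothing stated that the cultures came from separate animals, so p-values measure the spread between cultures. In such bulk RNA, fewer cells of a type and less RNA per cell cannot be told apart.

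YAP (encoded by Yap1) and TAZ (encoded by Wwtr1) do not bind DNA themselves. In the nucleus they bind the TEAD factors and switch on target genes, and they respond to cell shape, stiffness of the matrix and cell contact. The Hippo kinase cassette (MST kinases, then LATS kinases) phosphorylates YAP and TAZ, which keeps them in the cytoplasm or sends them to degradation. In cartilage the pathway takes part in growth plate development, and CCN1 and CCN2 are secreted matrix-associated proteins made by chondrocytes. RNA levels do not show phosphorylation or nuclear entry, which the sequencing did not measure.

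Total estimated counts per culture ranged from 19733448 to 28192740. Oscar, the check of the labels, had 3 to 4 counts in Ad-Control, 173445 to 187278 in Ad-OSCAR and 80766 to 94199 in Ad-OSCAR + 5-ASA cultures. No culture went against the virus in its label. Oscar does not check the 5-ASA label, and the treated cells had less Oscar than the untreated ones (log2 fold change -0.97). Chondrocyte markers were abundant in Ad-Control cells, where 7 listed genes including Col2a1, Acan and Sox9 summed to between 13932 and 15863 TPM (transcript abundance, a level corrected for transcript length and scaled to each library). All 7 fell in Ad-OSCAR cells, to sums of 876 to 1010, and the sums were 974 to 1159 with 5-ASA. With 5-ASA, 5 of the 7 were higher and 0 lower at an adjusted p below 0.05 by edgeR, beside 10.4% and 7.38% of all genes. Col2a1, Acan and Sox9 rose by log2 fold changes of 0.28, 0.27 and 0.24. A list of 6 fibroblast and synovial markers summed to 2826 to 3071, 1438 to 1516 and 1428 to 1619 TPM in the same order of groups. Most of that sum was Col1a1, which fell with OSCAR (log2 fold change -1.67), as Thy1, Pdgfra and Dpt did, whereas Prg4, the lubricin gene of synovial and superficial cartilage cells, rose (1.86, adjusted p = 9.80e-17). With 5-ASA, 2 of the 5 genes tested in this list were higher (Col1a1, 0.30, and Thy1, 0.80) and 1 was lower. Muscle (8 genes), macrophage (5) and endothelial (5) markers were low. Of these, 6, 4 and 4 genes stayed below 1 TPM in every culture, Actc1 and Myod1 were at 0 throughout, and the macrophage sum was 3.14 to 4.98, 13.7 to 14.0 and 9.22 to 10.8 TPM, in the order of the groups, with Cd68 as the one gene above 1 TPM. The endothelial sum was 0.16 to 0.54, 0.81 to 1.37 and 0.61 to 0.67 TPM in the same order. The 1 endothelial gene tested rose with OSCAR (log2 fold change 1.88) and fell with 5-ASA (-0.69). The part of these shifts in the changes below was not tested.

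To see whether OSCAR moved the pathway's RNA, Ad-OSCAR cells were compared with Ad-Control cells. The target genes fell and the co-activators did not change detectably. Of the 10 genes, 1 (Tead2) was higher and 7 (Tead1, Tead3, Tead4, Amotl2, Ankrd1, Ccn1 and Ccn2) were lower at an adjusted p below 0.05 by edgeR's quasi-likelihood test. Among the 15362 genes tested, 32.7% were higher and 32.2% lower. By the study's stricter criteria (an absolute log2 fold change above 1.5 and an adjusted p below 0.05), only Ccn1 and Ccn2 were downregulated, where 5.39% of all genes were, and none of the 10 was upregulated, where 4.57% of all genes were. Counts scaled by library (CPM) of Ad-OSCAR and Ad-Control cultures did not overlap for 8 of the 10 genes, against 69.0% of genes tested. The median log2 fold change was -0.31 over the 10 genes and 0.02 over all genes.

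Whether 5-ASA moved the same genes was asked by comparing treated with untreated Ad-OSCAR cells. Here 6 of the 10 genes were higher (Wwtr1, Tead1, Tead2, Amotl2, Ccn1 and Ccn2) and 0 were lower at an adjusted p below 0.05, where 10.4% of all genes were higher and 7.38% lower. At an unadjusted p below 0.05, 7 genes were higher and 0 lower in edgeR, where 16.4% and 13.9% of all genes were, and 0 were lower by DESeq2 or by limma on TPM at an adjusted p below 0.05. The study's criteria for 5-ASA (more than 1.5-fold and an unadjusted p below 0.05) were set, by its methods, for treated cells against Ad-Control. Applied here to treated against untreated Ad-OSCAR cells, 0 of the 10 passed in either direction, where 2.27% of all genes were higher and 1.87% lower. The count of genes higher by these criteria became 1 with DESeq2 (Ccn1), since the rise of Ccn1, at 49.6%, lay just under the limit. CPM did not overlap for 7 of the 10 genes, against 33.8% of all genes, and the medians were 0.20 and -0.00. With limma on the authors' TPM, which differs in scaling, test, pseudocount and filter together, the calls across all genes turned from 58.5% higher to 28.4% higher, and the median over all genes moved by -0.08. RLE scaling alone gave 60.2% higher. On TPM, 3 of the 10 genes (Amotl2, Ccn1 and Ccn2) were higher and 0 lower at an adjusted p below 0.05, where 3.52% of all genes were higher and 8.87% lower.

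**Figure D1:**
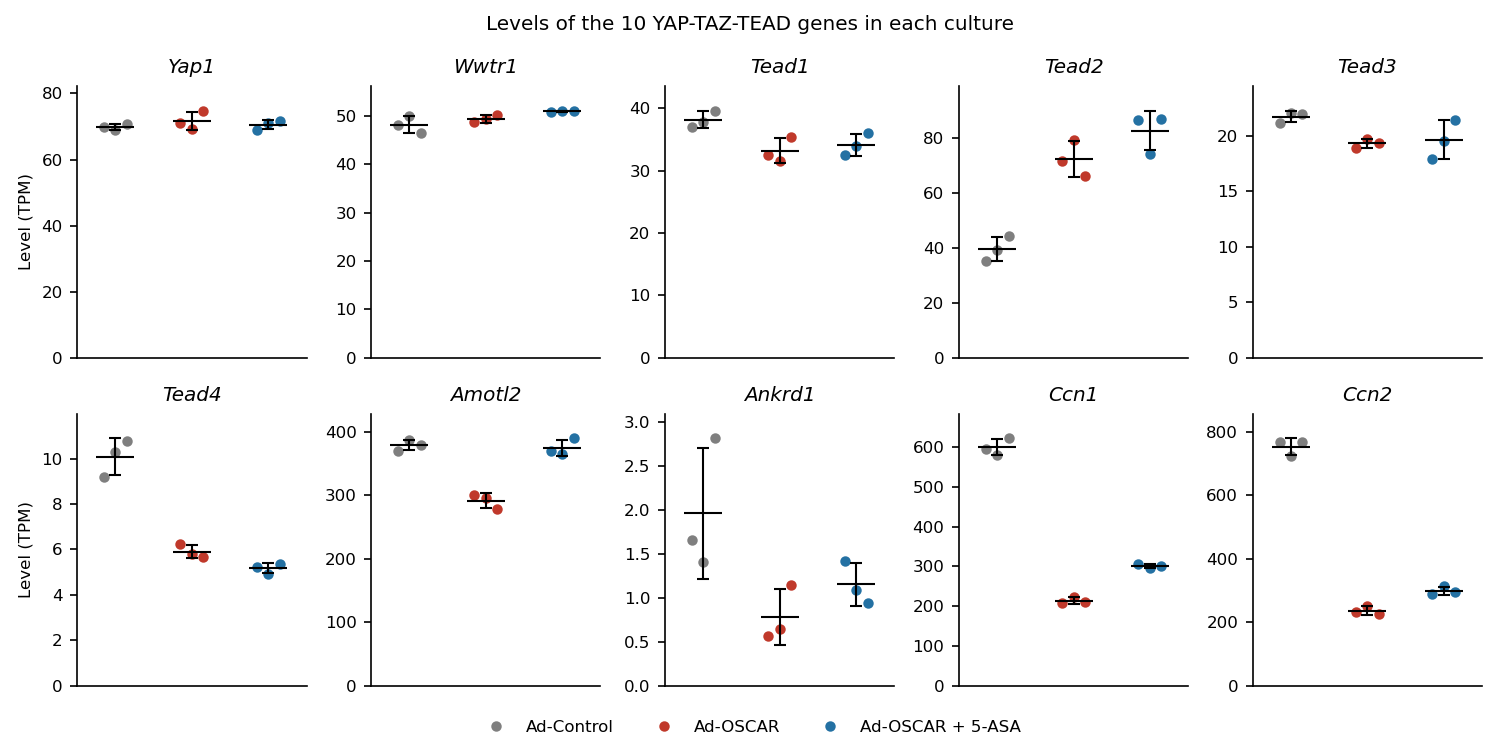
Level of each of the 10 genes in TPM (vertical axis, from 0) in each of the 9 cultures (points, coloured by group), with the mean and SD of 3 cultures (black). Ccn1, Ccn2 and Amotl2 dropped with OSCAR and were higher with 5-ASA, Tead2 rose, Tead4 fell, and the Yap1 points of the 3 groups overlapped in TPM.

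Among the target genes, Ccn2 (ENSMUSG00000019997.11, chr10:24595442-24598683, plus strand), also known as connective tissue growth factor, had the strongest fall. Its level was 769, 724 and 767 TPM in Ad-Control, 232, 251 and 225 TPM in Ad-OSCAR, and 289.9, 313 and 294 TPM in Ad-OSCAR + 5-ASA cultures. The 3 groups did not overlap, with the treated cultures above the untreated Ad-OSCAR cultures and far below Ad-Control. OSCAR lowered Ccn2 by a log2 fold change of -1.71 ± 0.05 (SE; adjusted p = 6.29e-15), which is 3.27-fold. With 5-ASA it was 1.36-fold higher than in untreated Ad-OSCAR cells (0.44 ± 0.05; adjusted p = 1.38e-05). An antisense transcript, Gm15270, overlaps Ccn2 and had 60 to 74, 28 to 45 and 42 to 57 counts in the 3 groups. Its part in the Ccn2 result was not tested, and Ccn2 counts are reported with that overlap because the strand setting of the counting was not given in the sources used here.

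Ccn1 (ENSMUSG00000028195.4, chr3:145646976-145649981, minus strand), whose product binds integrins in the matrix, gave 596, 581 and 622 TPM in Ad-Control cultures. Ad-OSCAR cultures held 208, 224 and 209.6 TPM, and Ad-OSCAR + 5-ASA cultures held 306, 295 and 299.8 TPM. Again no group overlapped another. The fall with OSCAR was -1.51 ± 0.05 (adjusted p = 8.31e-15), or 2.85-fold, just past the study's limit of 1.5 on the log2 scale. It was under that limit without Ad-Control culture 3 (-1.49), Ad-OSCAR culture 1 (-1.48) or Ad-OSCAR culture 3 (-1.48). The rise with 5-ASA was 0.58 ± 0.05 (adjusted p = 2.33e-07), the strongest of the 6 called genes on the log2 scale. No other gene overlaps Ccn1 in the annotation.

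Amotl2 (ENSMUSG00000032531.15, chr9:102716672-102733418, plus strand) encodes a junction scaffold that binds YAP and restrains it, and is itself switched on by YAP. It stood at 370.4, 387 and 379.95 TPM in Ad-Control, at 301, 296 and 278 TPM in Ad-OSCAR and at 369.6, 365 and 389.7 TPM in Ad-OSCAR + 5-ASA cultures. Treated cultures covered the same range as Ad-Control, and both lay wholly above Ad-OSCAR. The log2 fold changes were -0.37 ± 0.05 with OSCAR (adjusted p = 9.88e-07) and 0.45 ± 0.05 with 5-ASA (adjusted p = 1.89e-06). Between treated and Ad-Control cells the difference was 0.07, with a 95% interval from -0.04 to 0.19, and it was -0.02 on TPM.

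Ankrd1 (ENSMUSG00000024803.9, chr19:36111961-36120099, minus strand), a nuclear and sarcomeric ankyrin repeat protein best known from heart muscle, was near the detection limit. Its counts were 38, 36 and 55 in Ad-Control, 18, 17 and 32 in Ad-OSCAR, and 43, 34 and 25 in Ad-OSCAR + 5-ASA cultures. Ad-OSCAR lay below Ad-Control without overlap, while the treated cultures overlapped Ad-OSCAR. Its fall with OSCAR was -1.29 ± 0.31 (adjusted p = 0.00124) and was -0.72 on the log2(TPM + 1) scale, which understates changes of low genes. The 5-ASA difference was 0.65 ± 0.32 (adjusted p = 0.180), with a 95% interval from -0.13 to 1.43, so a change was not detectable from these few counts. The 8 muscle markers, 6 of them under 1 TPM in every culture, summed to 4.39 to 4.52, 0.49 to 2.66 and 0.78 to 0.86 TPM in the 3 groups, and their part in the Ankrd1 result was not tested.

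TEAD factors bind the 6 bases GGAATG (the MCAT element), so these letters and their reverse complement CATTCC were searched in the 250 bases before each RefSeq start of the 10 genes in GRCm38.p6. Windows were found for 7 genes, with 10 windows in all, and not for Tead1, Tead4 and Ccn2. At least 1 motif stood in a window of 6 of the 7 genes (all but Tead2), against 14.4% of the 27025 genes in the table, and 8 of the 10 windows held one, against 12.6% of 32851 windows. Windows of 1 gene can overlap, so they do not count as separate genes. The AP-1 motif TGANTCA was in 0 of the 10 windows, against 6.75% of all windows. A match of letters is not a binding site, since no binding was measured here. The sequence before Ccn1 is shown whole because Ccn1 moved in both comparisons and has no neighbouring overlap, and the 30 bases around the motif are shown for the other targets and the co-activators. Sequences are RefSeq's, 5′ to 3′ in the direction of the gene, and capitals mark the TEAD motif on either strand.
Ccn1, chr3:145649986-145650235, minus strand: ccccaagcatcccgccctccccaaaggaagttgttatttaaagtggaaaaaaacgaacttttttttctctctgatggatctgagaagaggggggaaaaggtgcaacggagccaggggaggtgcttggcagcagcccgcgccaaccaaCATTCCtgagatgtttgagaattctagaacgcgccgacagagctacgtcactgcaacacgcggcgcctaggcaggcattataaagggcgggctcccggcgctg
Amotl2, chr9:102717727-102717756, plus strand: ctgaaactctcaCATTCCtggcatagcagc
Ankrd1, chr19:36120037-36120066, minus strand: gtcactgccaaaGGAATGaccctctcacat
Ankrd1, chr19:36119950-36119979, minus strand: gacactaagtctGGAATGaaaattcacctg
Yap1, chr9:8004720-8004749, minus strand: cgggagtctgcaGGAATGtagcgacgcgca
Wwtr1, chr3:57576029-57576058, minus strand: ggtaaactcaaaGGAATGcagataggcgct

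In Ccn1 the motif lay 98 to 103 bases before the start, and in Amotl2 60 to 65 bases, both on the strand opposite to the gene. Ankrd1 carried it on its own strand at 118 to 123 and again at 205 to 210 bases. The GENCODE M21 annotation has exons of Amotl2 and Ankrd1 over these sites, so there they count as transcribed. Tead3, with 3 annotated starts, had 3 sites, of which 2 stood 9 bases apart before its second start. Those 2 also lay in an exon of Tead3 in GENCODE M21.

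**Figure D2:**
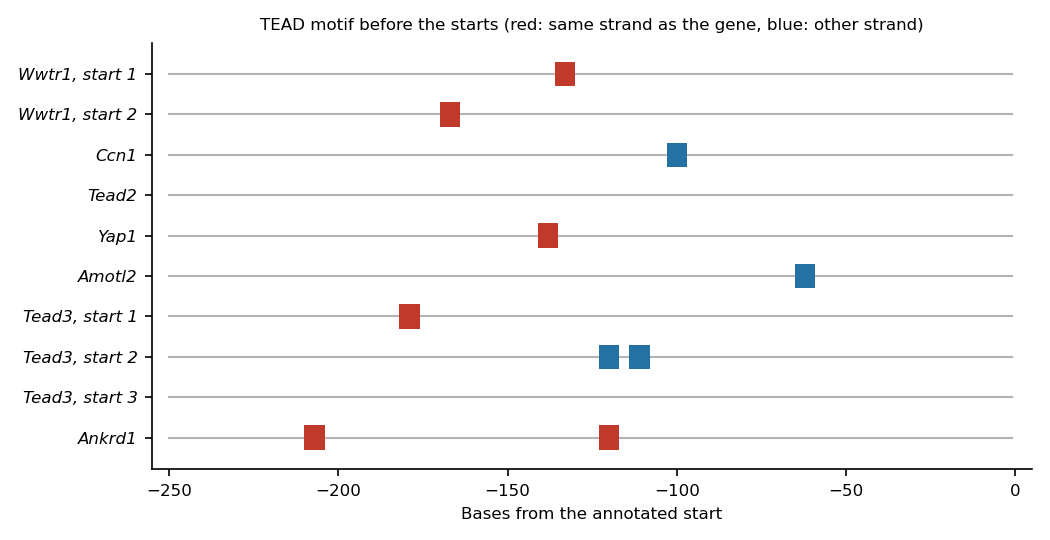
Position of each TEAD motif (blocks) in the 250 bases before 10 RefSeq starts of 7 of the genes (rows), with distance from the start in bases on the horizontal axis. Red blocks are on the strand of the gene and blue blocks on the other, and Tead2 and the third start of Tead3 have none.

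The co-activators did not change detectably with OSCAR. Yap1 (ENSMUSG00000053110.13, chr9:7931999-8004596, minus strand) stood at 69.8, 69.0 and 70.8 TPM in Ad-Control, 71.1, 69.2 and 74.8 TPM in Ad-OSCAR, and 68.9, 71.0 and 71.7 TPM in Ad-OSCAR + 5-ASA cultures. Ranges of the 3 groups overlapped in TPM. In CPM the treated cultures (170.8 to 170.9) lay above Ad-OSCAR (159.7 to 162) and Ad-Control (156 to 159.7). The OSCAR difference was 0.03 ± 0.04 (adjusted p = 0.512) with a 95% interval from -0.07 to 0.13. With 5-ASA the difference was 0.09 ± 0.04 (adjusted p = 0.161) and turned to -0.02 on TPM.

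Wwtr1 (ENSMUSG00000027803.14, chr3:57455649-57575910, minus strand) had 48.2, 49.96 and 46.4 TPM in Ad-Control cultures, 48.7, 49.3 and 50.3 TPM in Ad-OSCAR cultures, and 50.9, 51.1 and 50.96 TPM in treated cultures. The treated cultures lay just above all others. The OSCAR difference was 0.01 ± 0.04 (adjusted p = 0.910), with an interval from -0.10 to 0.11, and its sign varied between alternatives. With 5-ASA, Wwtr1 rose by 0.14 ± 0.04 (adjusted p = 0.0320), a rise of 10.3%. That call was lost in 7 of 16 alternatives, among them TPM (adjusted p = 0.550) and leaving out Ad-OSCAR culture 1 (0.149) or 3 (0.0670) or treated culture 1 (0.112) or 2 (0.0727). Yap1 made up 58.0% to 60.4% of the summed Yap1 and Wwtr1 TPM in Ad-Control, 58.4% to 59.8% in Ad-OSCAR and 57.5% to 58.5% in treated cultures, so the balance of the pair overlapped between groups.

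The TEAD factors moved in opposite directions. Tead2 (ENSMUSG00000030796.17, chr7:45215753-45233644, plus strand), the member best known from early embryos and neural progenitors, was the one that rose. Its level was 35.3, 39.1 and 44.4 TPM in Ad-Control, 71.5, 79.4 and 66.1 TPM in Ad-OSCAR, and 86.7, 74.4 and 87.1 TPM in Ad-OSCAR + 5-ASA cultures. Ad-Control lay well below the other groups, which overlapped each other in TPM but not in CPM (57.9 to 70.9 in Ad-OSCAR and 73.4 to 79.6 in treated cultures). The rise with OSCAR was 0.88 ± 0.07 (adjusted p = 1.90e-09), or 1.84-fold. A further rise of 0.25 ± 0.06 with 5-ASA (adjusted p = 0.00952) was lost on TPM (0.262) and without Ad-OSCAR culture 3 (0.0621) or treated culture 1 (0.0603). Cd37, which overlaps Tead2 on the other strand, had 1 to 5 counts in any culture.

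Tead4 (ENSMUSG00000030353.15, chr6:128224288-128300823, minus strand), known from the trophectoderm and from muscle, went the other way. Its values were 9.20, 10.3 and 10.8 TPM in Ad-Control, 6.25, 5.78 and 5.68 TPM in Ad-OSCAR, and 5.21, 4.93 and 5.35 TPM in treated cultures. Both groups with the OSCAR virus lay below Ad-Control without overlap. The fall with OSCAR was -0.87 ± 0.09 (adjusted p = 8.89e-08), or 1.83-fold. The 5-ASA difference was -0.15 ± 0.09 (adjusted p = 0.311), with an interval from -0.38 to 0.08.

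Tead1 and Tead3, which are broadly expressed, showed small falls. Tead1 (ENSMUSG00000055320.17, chr7:112679318-112906807, plus strand) had 36.95, 37.9 and 39.6 TPM in Ad-Control and 32.6, 31.6 and 35.4 TPM in Ad-OSCAR cultures, a fall of -0.24 ± 0.04 (adjusted p = 0.00012). With 32.5, 33.9 and 35.97 TPM in treated cultures its rise with 5-ASA was 0.15 ± 0.04 (adjusted p = 0.0221). On TPM the treated and untreated cultures overlapped, and the call was lost on TPM (0.695) and without Ad-OSCAR culture 1 (0.0959) or 2 (0.0677) or treated culture 2 (0.0534) or 3 (0.0813). Tead3 (ENSMUSG00000002249.21, chr17:28331671-28350817, minus strand) went from 21.2, 22.1 and 22.0 TPM to 18.9, 19.7 and 19.4 TPM with OSCAR, a fall of -0.20 ± 0.06 (adjusted p = 0.00623) whose adjusted p was 0.0652 on TPM. In treated cultures it held 17.96, 19.5 and 21.5 TPM, and the 5-ASA difference was 0.12 ± 0.06 (adjusted p = 0.176). The transcript 2310014F06Rik, which overlaps Tead1 on the other strand, had 11 to 27 counts. Tead1 also overlaps the microRNA gene Gm44462 on its own strand. On the other strand Gm20416 overlaps Yap1, Gm16016 overlaps Wwtr1 and Gm21893 overlaps Tead4. The part of these overlaps in the results was not tested.

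With Tead2 up and the others down, the make-up of the TEAD transcripts differed between Ad-OSCAR and Ad-Control cultures. Tead2 was 36.1% ± 1.81 (SD, n = 3) of the summed Tead1 to Tead4 TPM in Ad-Control, 55.2% ± 2.98 in Ad-OSCAR and 58.3% ± 2.45 in treated cultures. Tead1 held 33.9% to 36.0%, 23.1% to 28.0% and 22.8% to 25.6%, and Tead4 held 8.97% to 9.40%, 4.23% to 4.84% and 3.57% to 3.71%. Ad-OSCAR and Ad-Control shares did not overlap for any of the 4 genes. The summed TEAD level rose from 103 to 117 TPM in Ad-Control to 127 to 137 TPM in Ad-OSCAR cultures. For each of these differences a two-sided exact permutation test gave p = 0.1, the smallest that 3 against 3 cultures allow, and 0.175 after Benjamini-Hochberg adjustment over 21 such tests.

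**Figure D3:**
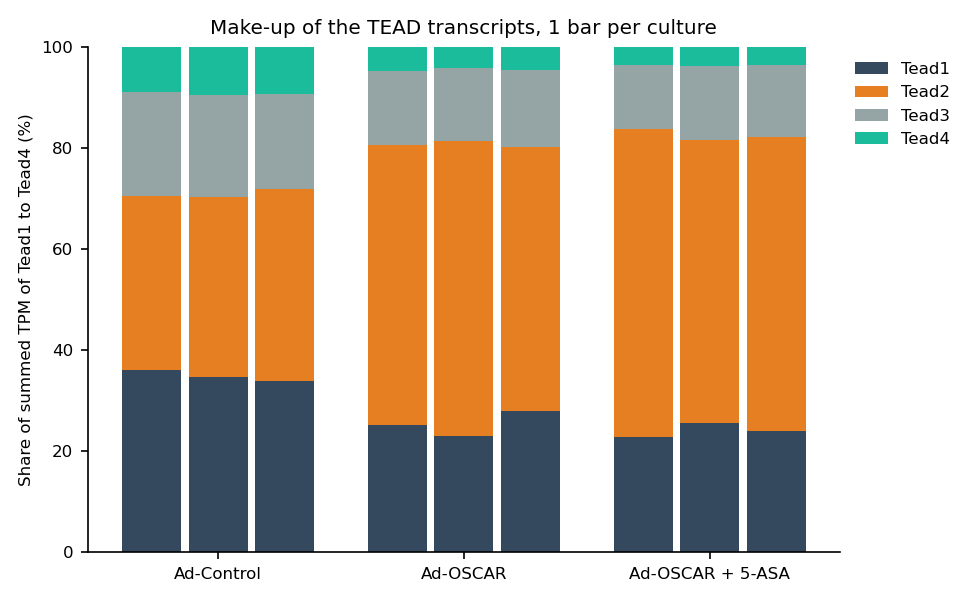
Share of each TEAD gene in the summed TPM of Tead1 to Tead4 (vertical axis, percent), with 1 bar for each culture, grouped by treatment. The orange segment, Tead2, grows from a mean of 36.1% in Ad-Control to 52.2% or more in every culture with the OSCAR virus.

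Ordered by level, which can be compared between genes only per length and is given here in TPM, the targets changed places. In Ad-Control the order was Ccn2, Ccn1, Amotl2 and Ankrd1, with no overlap of neighbours. Under OSCAR it became Amotl2, Ccn2, Ccn1 and Ankrd1, again without overlap, although Ccn2 and Ccn1 overlapped when CPM per kilobase was used. With 5-ASA, Amotl2 stayed on top, Ccn1 and Ccn2 overlapped, and Ankrd1 was last. Among the TEAD factors, Tead2 and Tead1 overlapped in Ad-Control, and Tead2 led without overlap in both groups with the OSCAR virus, followed by Tead1. Tead3 and Tead4 were the last in all 3 groups. Yap1 was above Wwtr1 in all 9 cultures.

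Treated cells were also set against Ad-Control. Because this comparison shares its cultures with the other 2, its values stand beside theirs and add no separate evidence. At an adjusted p below 0.05, 3 genes were higher (Yap1, Wwtr1 and Tead2), where 31.4% of all genes were, and 3 lower (Tead4, Ccn1 and Ccn2), where 31.8% were. By the criteria for 5-ASA, Tead2 was higher (14.6% of all genes) and Tead4, Ankrd1, Ccn1 and Ccn2 lower (15.3%), and CPM did not overlap for 7 of the 10 genes (66.6%). Ccn2 remained -1.27 ± 0.05 (adjusted p = 4.32e-13) and Ccn1 -0.93 ± 0.05 (adjusted p = 8.06e-12) below Ad-Control on the log2 scale. Tead2 was 1.12 ± 0.07 above it (adjusted p = 5.74e-11) and Tead4 -1.02 ± 0.09 below it (adjusted p = 1.44e-08). The higher values of Yap1 (0.12, adjusted p = 0.0179) and Wwtr1 (0.15, adjusted p = 0.00726) were not called on TPM, with adjusted p = 0.827 and 0.174. Yap1 also lost the call with no filter (0.0612) and without Ad-Control culture 2 (0.0629) or 3 (0.0518), or without treated culture 1, where the adjusted p lay just above 0.05. Tead1 differed by -0.09 (adjusted p = 0.0959), and it passed 0.05 without treated culture 3 (0.0488). Ankrd1 stood at -0.64 (adjusted p = 0.0600), which passed 0.05 without Ad-Control culture 2 (0.0234), Ad-OSCAR culture 3 (0.0497) or treated culture 1 (0.0343), with no filter (0.0231) and with a minimum of 10 counts throughout (0.0472).

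**Figure D4:**
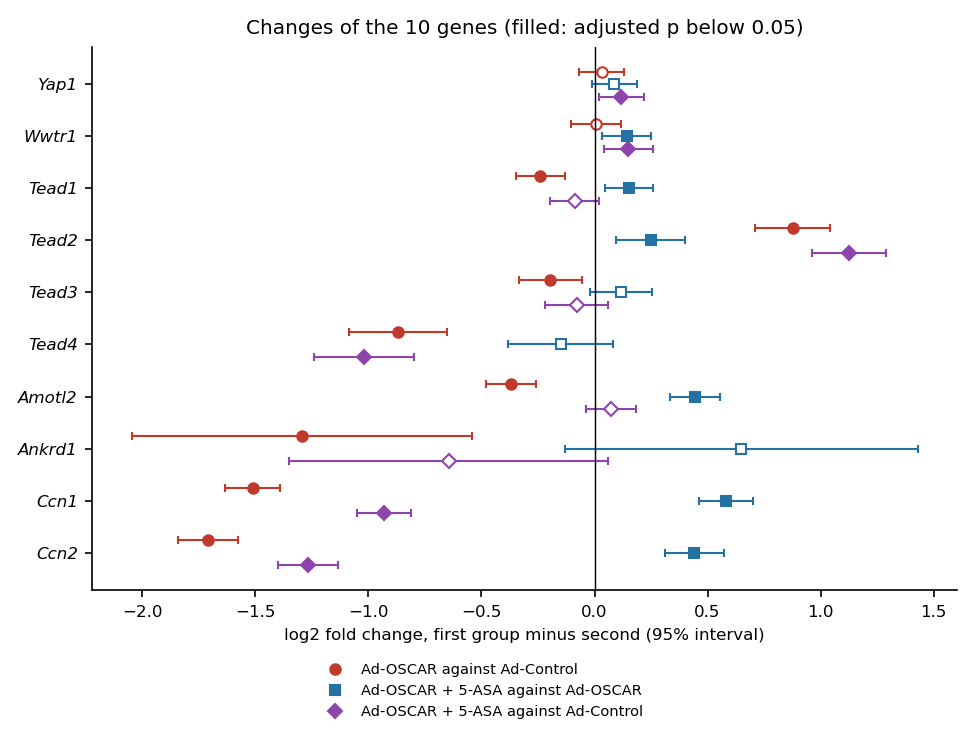
Log2 fold change (horizontal axis) of the 10 genes with its 95% interval in the 3 comparisons, first group minus second, with filled symbols where the adjusted p was below 0.05. Ccn1 and Ccn2 lie far left with OSCAR (-1.51 and -1.71) and right of 0 with 5-ASA (0.58 and 0.44), and Tead2 is the one gene right of 0.5 with OSCAR.

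The regulators that act on YAP and TAZ were read from 4 lists of 29 genes, of which 27 were tested and Vgll1 and Vgll2 were at 0 in every culture. With OSCAR, 6 of the 27 were higher and 12 lower, beside 32.7% and 32.2% of all genes, and the median log2 fold change was -0.10. With 5-ASA, 8 were higher and 0 lower, beside 10.4% and 7.38%, with a median of 0.07. At an unadjusted p below 0.05, edgeR had 3 of them lower (Slmap, Map4k4 and Ptpn14), and DESeq2 had 1 at an adjusted p below 0.05. On TPM, 3 were higher (Lats2, Frmd6 and Dchs1), beside 3.52% of all genes.

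In the Hippo kinase cassette (11 genes), 4 rose with OSCAR and 4 fell, shares near the 32.7% and 32.2% of all genes. Lats2, one of the kinases that phosphorylate YAP and TAZ and also one of their targets, had 67.1, 67.5 and 71.9 TPM in Ad-Control, 113.0, 113.1 and 116 TPM in Ad-OSCAR and 136, 134 and 148 TPM in treated cultures. No group overlapped another, and Lats2 rose both with OSCAR (0.61 ± 0.04, adjusted p = 5.59e-10) and with 5-ASA (0.37 ± 0.04, adjusted p = 6.50e-06). Its partner Lats1 rose by 0.16 ± 0.05 with OSCAR (adjusted p = 0.00704) and differed by -0.05 with 5-ASA (adjusted p = 0.483). The LATS-binding scaffold gene Mob1b (0.37) and the upstream kinase gene Map4k4 (0.26) also rose with OSCAR. Sav1, which holds the MST kinases to LATS (-0.48), the MST kinase gene Stk4 (-0.37) and Mob1a (-0.23) fell, and Mob1a rose by 0.17 with 5-ASA.

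Of 9 genes for membrane and scaffold regulators, 6 fell with OSCAR, beside 32.2% of all genes, and 1, Ptpn14, rose (0.38), beside 32.7%. The strongest falls were those of Wwc1, encoding KIBRA (-1.03), of the YAP-binding scaffold gene Amot (-0.85), a relative of Amotl2, and of Frmd6 (-0.43). With 5-ASA 4 of the 9 rose, beside 10.4% of all genes, led by the cadherin gene Dchs1 (0.77), Frmd6 (0.39) and Amotl1 (0.29). Frmd6 fell and then rose like Amotl2, at 91.0 to 93.3, 68.8 to 70.1 and 83.6 to 87.4 TPM in the 3 groups. Among 5 genes whose products hold the cassette back, Ajuba (-0.71) and Limd1 (-0.20) fell and Slmap rose (0.12) with OSCAR, and Ajuba rose with 5-ASA (0.19). Of the TEAD cofactors that compete with YAP, Vgll3 was 139.8 to 147, 113 to 124 and 120.4 to 128 TPM. Its differences were -0.10 with OSCAR (adjusted p = 0.0597) and 0.17 with 5-ASA (adjusted p = 0.0151), and those of Vgll4 were 0.01 and 0.08 (adjusted p = 0.941 and 0.382).

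A list of 18 further target genes, which includes Lats2 and Ptpn14 again, did not move one way with OSCAR. It had 7 genes higher, 7 lower and 4 not called, with a median of -0.01, beside the 32.7% and 32.2% of all genes. Nt5e, the ecto-enzyme CD73, rose by 2.10 ± 0.05 (adjusted p = 8.77e-17), from 90.7 to 103 TPM in Ad-Control to 408 to 431 TPM in Ad-OSCAR cultures. Dock5 (0.73) and the stress gene Gadd45a (0.71) rose as well. The kinase gene Nuak2 (-1.61), the matrix gene Ccdc80 (-1.61) and Igfbp3 (-0.57), encoding a carrier of insulin-like growth factors, fell. Ccdc80 stood at 664 to 725 TPM in Ad-Control, 228 to 239 TPM in Ad-OSCAR and 262 to 282 TPM in treated cultures.

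With 5-ASA, 10 of the 18 rose and 0 fell, beside 10.4% and 7.38% of all genes, and the median was 0.20. At an unadjusted p below 0.05, edgeR had 1 lower, Ptpn14, and DESeq2 had 0 at an adjusted p below 0.05. Gadd45a (0.80 ± 0.08, adjusted p = 9.35e-07), the ligand gene Tgfb2 (0.51) and the RNA-binding gene Rbms3 (0.47) led. Gadd45a rose in both steps, at 28.3 to 30.3, 42.6 to 51.8 and 73.8 to 87.3 TPM in the 3 groups. On TPM 5 of the 18 were higher, beside 3.52% of all genes. The other CCN genes were mixed. Ccn5 followed Ccn1 and Ccn2, falling by 1.65 with OSCAR and rising by 0.94 with 5-ASA. Ccn3 did the opposite (0.43 and -0.22), Ccn4 rose with 5-ASA (0.42) and was level with OSCAR (0.00, adjusted p = 0.967), and Ccn6 was not called in either comparison (-0.33 and 0.20).

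**Figure D5:**
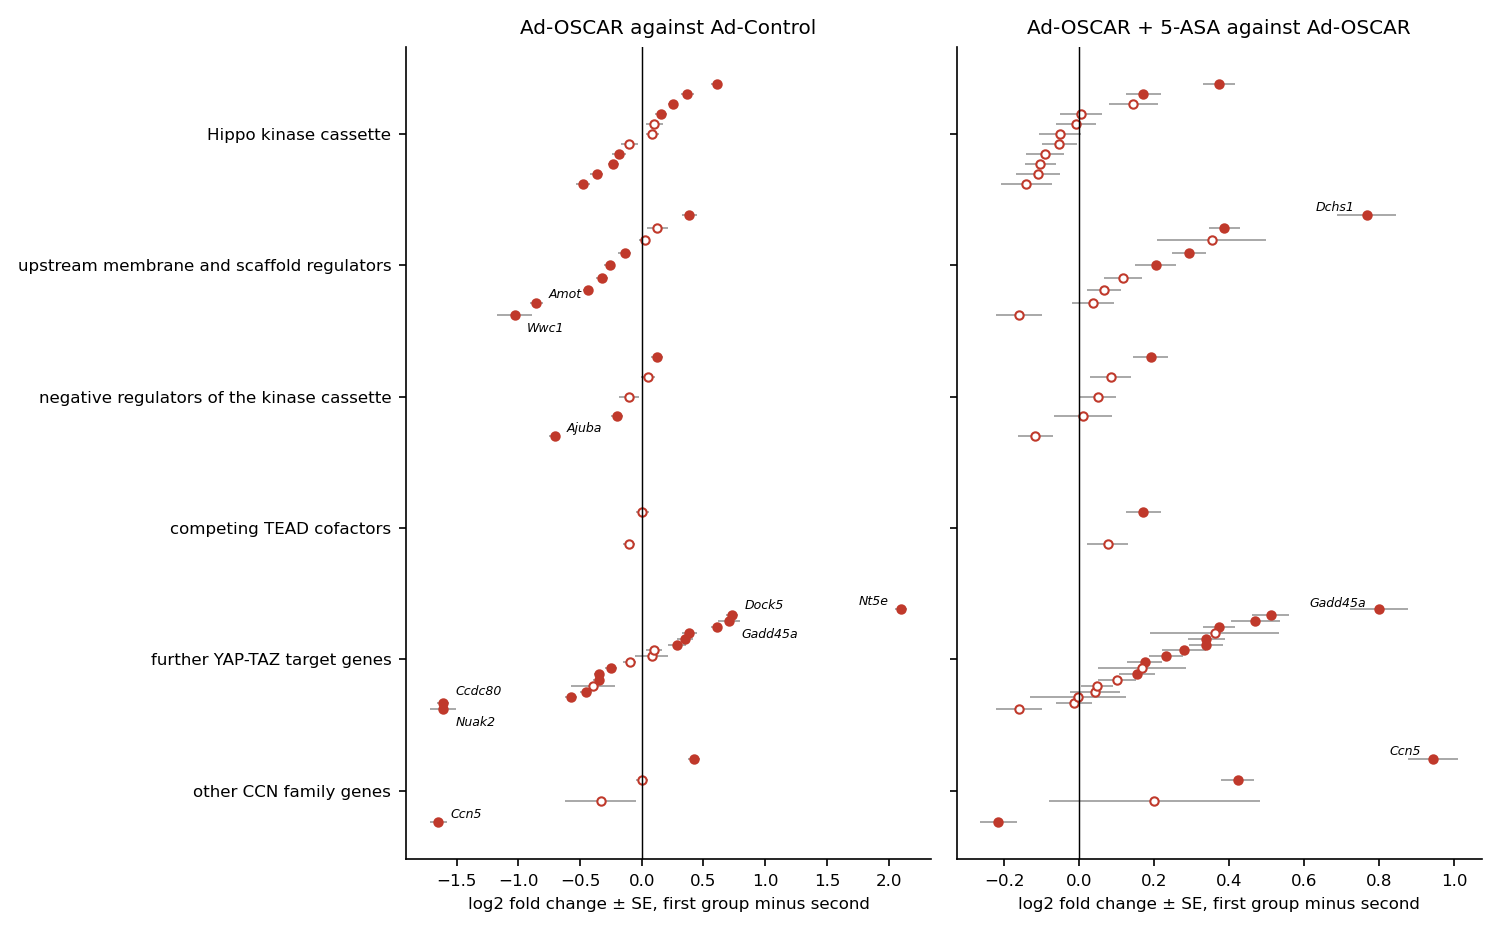
Log2 fold change with SE (horizontal axis) of each tested gene of 6 lists (rows) in Ad-OSCAR against Ad-Control (left) and Ad-OSCAR + 5-ASA against Ad-OSCAR (right, on a narrower axis), with filled points where the adjusted p was below 0.05. On the left the further targets spread from Nuak2 at -1.61 to Nt5e at 2.10, and on the right no filled point lies left of 0 but that of Ccn3 (-0.22).

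The genes whose log2 CPM ran most like that of a target were sought among 13267 genes averaging 1 CPM or more, across all 9 cultures. These correlations describe 9 libraries in 3 treatment groups and carry no p. Ccn2 ran with Ctdspl, Maf and Mest (r = 0.999, 0.998 and 0.998), and 1473 genes had r above 0.95 with it. Ccn1 ran with Islr, Rpl3-ps1 and Sept11 (r = 0.999, 0.998 and 0.998), with 943 genes above 0.95. So many genes shared this course that it did not single out a small group.

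Amotl2 had a rarer course, with 36 genes above 0.95, led by Mprip (r = 0.991), which encodes a binding partner of myosin phosphatase and RhoA, then Rin1 (0.982) and Kctd15 (0.979). Yap1 had 29 such genes (among them Sytl2 and Pamr1, r = 0.980 and 0.973) and Wwtr1 had 7 (Rwdd4a, Galnt3 and Manea, r = 0.975, 0.967 and 0.965). For Ankrd1 no gene reached 0.95, and Dnajc27 (0.948), Reep3 (0.937) and Tcf7l2 (0.929) came nearest. Since Yap1 and Wwtr1 varied little between cultures, their correlations rest on small differences.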

How the data were processed

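Stranded mRNA libraries of 9 cultures, 3 per group, had been sequenced. According to the methods and the submitters' processing notes, the authors aligned trimmed reads to GRCm38 with STAR 2.7.1a and made expected (estimated) counts per gene with RSEM 1.3.1. The deposited expected counts total 19733448 to 28192740 per culture. The deposited TPM, made by the authors, are corrected for length. Symbols and places are those of GENCODE M21, which held 55230 of the 55471 genes.

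Rounded counts were fitted in R 4.3.3 with edgeR 4.0.16 (TMM, filterByExpr, quasi-likelihood F test, all 9 cultures, group as the only factor, 6 residual degrees of freedom, biological coefficient of variation 5.11%), with Benjamini-Hochberg adjustment over 15362 genes. Replicates differed beyond sampling noise (chi-square per degree of freedom 4.03 to 7.52). Same-numbered cultures of different groups did not deviate together (9 correlations from -0.07 to 0.04), so they were not paired. CPM are TMM-scaled. Alternatives were RLE scaling, DESeq2 1.42.0, no filter, a minimum of 10 counts throughout, fits of 2 groups alone, a block for the replicate number, limma 3.58.1 on log2(TPM + 1) for genes averaging 1 TPM or more, and each culture left out. The fits were tested on simulated counts. Python 3.11.15, pandas 2.3.3, scipy 1.17.1 and matplotlib 3.10.9 made tables and plots.

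The 10 genes, the lists and the tests were chosen with earlier results of these data known. All 10 genes are named, as are, in each list and each of the first 2 comparisons, up to 3 genes per direction with the largest change at an adjusted p below 0.05 and a mean of at least 1 CPM, then Lats1, Lats2, Vgll3, Vgll4, Oscar, markers, and the 3 genes most like each target or co-activator, of which 1 is not reported here. Ccn6, Ptpn14, Slmap and Map4k4 where they stand outside this rule, and the levels of Frmd6, Ccdc80 and Gadd45a, were picked after their values were seen. Protein sequences were not analysed here.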

Additional observations from a re-analysis of the deposited data

How the results depend on the processing

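Over 16 alternatives, the 30 log2 fold changes of the 10 genes gave 480 values, of which 446 kept their direction and side of the threshold, 22 lost the call, 6 gained it and 6 turned in sign. The signs that turned belonged to differences near 0 that were not called: Wwtr1 with OSCAR (-0.00422 with RLE, -0.00728 with DESeq2, and from -0.0203 without Ad-Control culture 3 to 0.0283 without Ad-OSCAR culture 1, below 0 also without Ad-OSCAR culture 2), Yap1 with 5-ASA (-0.0223 on TPM) and Amotl2 in treated against Ad-Control cells (-0.0167 on TPM). The cause was not tested. Falls of Ccn1, Ccn2, Amotl2, Ankrd1, Tead1 and Tead4, the rise of Tead2 with OSCAR, and rises of Amotl2, Ccn1 and Ccn2 with 5-ASA passed 0.05 in all 16. Ankrd1 rests on 17 to 55 counts per culture.

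With limma on TPM, counts with 5-ASA against Ad-OSCAR became 484 genes higher (1598 on counts), and 105 higher and 144 lower by the study's criteria (349 and 288). At an adjusted p below 0.05 there, 3 of the 10 genes, 3 Hippo regulators and 5 further targets were higher, beside 3.52% of all genes. Against Ad-Control the counts became 3019 genes higher of 13749 tested (4825 of 15362 on counts), and 1237 higher by the study's criteria (2241). Beside these, 1 of the 10 genes (3 on counts) and 4 Hippo regulators (7 on counts) were higher at an adjusted p below 0.05. The share of calls that were higher fell there from 49.7% to 39.5%, or by the study's criteria from 48.8% to 38.3%. By those criteria it fell from 54.8% to 42.2% against Ad-OSCAR. With OSCAR they became 281 higher and 422 lower by the study's criteria (702 and 828), with 1 of the 10 genes, Ccn2, lower. A minimum of 10 counts, which tests fewer genes, gave 350 higher with OSCAR and 1 of the 10 genes lower, beside 555 of 13409 genes. It gave 151 lower with 5-ASA, where no filter gave 514.

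By the study's criteria for 5-ASA, 1 of the 10 genes was higher with RLE and DESeq2 (Ccn1), and 1 with no filter, at least 10 counts, only 2 groups and the replicate block (Ankrd1), with 0 to 2 when a culture was left out (2 without treated culture 3). Under the same criteria for OSCAR, leaving out a culture gave 1 to 2 of the 10 genes lower, with Ccn1 lost without Ad-Control culture 3 or Ad-OSCAR culture 1 or 3, and Ankrd1 gained in the last. Genes lower with 5-ASA at an adjusted p below 0.05 were 1134, and 721 to 1127 when a culture was left out (721 without treated culture 1, 736 without Ad-OSCAR culture 1). Hippo regulators higher with 5-ASA were 5 to 8 (5 without treated culture 2). In the same fits 1146 to 1624 of all genes were higher (1386 without treated culture 2), against 1598 with every culture. Hippo regulators lower were 0 to 1, and further targets lower 0 to 1. DESeq2 called 1 Hippo regulator lower (Map4k4), and no filter and the block called 1 (Ptpn14), which is also the 1 further target.

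With the replicate number as a block, 1483 genes were higher and 1017 lower with 5-ASA (1598 and 1134 without it), and the same 6 of the 10 genes were called. The adjusted p for Wwtr1 was then 0.0481. The block changed no call of the 10 genes at an adjusted p below 0.05.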
